A study of Mus musculus with 6 samples.

Results

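The MYC, MAX and MXD network is a set of related transcription factors that bind DNA in pairs, and 10 of its genes are described here: Myc, Mycn, Mycl, Max, Mxd1, Mxd3, Mxd4, Mxi1, Mnt and Mga. They were taken by symbol from a list that was chosen with earlier results of these data known. All 10 were among the 13069 genes of the deposited expression table. RNA was sequenced from mouse glioblastoma (GBM) neurospheres, which are tumour cells grown as floating clusters in neural stem cell medium with FGF and EGF. There were 3 libraries labelled ATRX knockout (ATRX KO, line code C54B) and 3 labelled ATRX wild type (ATRX WT, line code C39E). Both kinds of tumour had been started in newborn mice with Sleeping Beauty plasmids for a short hairpin against p53 and for NRAS overexpression, so both genotypes carry these changes. The ATRX KO tumours received in addition, per the protocol, a plasmid for a short hairpin against ATRX, although the genotype label says knockout. The mice were C57BL/6 or FVB, and the strain behind each line is not given in the sources used here. Every library of a genotype has the same line code, so an effect of genotype and one of line cannot be told apart, and p-values measure the spread between libraries that may be technical repeats. The series title names its question, whether ATRX loss alters cell cycle phase transition in glioma.

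As background, MYC proteins (MYC, MYCN and MYCL) bind the DNA sequence CACGTG, the E-box, only as a pair with MAX, and these pairs recruit histone acetylases that raise transcription. The MXD proteins, MXI1 and MNT compete for MAX and for the same E-boxes, and recruit the SIN3 and histone deacetylase corepressor. MGA also pairs with MAX and sits in the Polycomb complex PRC1.6, which keeps germline genes silent. In the nervous system Mycn is the MYC gene of neural progenitors, Mxd3 is found in dividing progenitors, and Mxd4 and Mxi1 in cells that leave the cycle.

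The windows around the start sites are shown because E-boxes are the network's own binding sequence and Mycn had the largest fall. Of the 10 genes 9 had at least 1 window in the RefSeq promoter table (GRCm38.p6), each running from 250 bases before a start site to 50 after it. The gene without a window was Myc, so its start site was not searched. Max (chr12:76962199-76962498, minus strand), Mnt (chr11:74830674-74830973, plus strand) and Mxd4 (chr5:34187661-34187960, minus strand) held the letters CACGTG, in capitals here, which read the same on both strands. In Max the E-box began at base 248 of the window, and in Mnt at base 128. Mycn (chr12:12941787-12942086, minus strand) held no E-box but 2 copies of TTTGGCGC, an E2F-type element, in capitals in its line; this motif was chosen after the sequence was seen.
Max: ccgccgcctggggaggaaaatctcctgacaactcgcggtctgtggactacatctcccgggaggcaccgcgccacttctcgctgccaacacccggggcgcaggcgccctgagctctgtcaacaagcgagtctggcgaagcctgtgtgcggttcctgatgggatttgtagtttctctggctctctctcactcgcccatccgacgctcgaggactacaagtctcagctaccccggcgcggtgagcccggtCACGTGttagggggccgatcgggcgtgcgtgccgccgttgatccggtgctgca
Mnt: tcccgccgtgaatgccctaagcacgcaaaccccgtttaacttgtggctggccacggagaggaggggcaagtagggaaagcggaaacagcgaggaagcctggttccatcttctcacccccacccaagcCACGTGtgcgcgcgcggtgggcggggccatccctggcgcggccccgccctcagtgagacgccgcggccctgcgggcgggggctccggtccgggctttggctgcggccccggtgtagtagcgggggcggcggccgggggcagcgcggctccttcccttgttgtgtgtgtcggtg
Mxd4: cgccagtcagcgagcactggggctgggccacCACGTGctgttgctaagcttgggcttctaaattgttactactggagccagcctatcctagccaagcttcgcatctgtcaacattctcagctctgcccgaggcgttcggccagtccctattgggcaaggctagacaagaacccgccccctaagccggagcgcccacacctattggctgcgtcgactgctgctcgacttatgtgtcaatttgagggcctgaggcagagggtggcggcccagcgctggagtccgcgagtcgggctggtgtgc
Mycn: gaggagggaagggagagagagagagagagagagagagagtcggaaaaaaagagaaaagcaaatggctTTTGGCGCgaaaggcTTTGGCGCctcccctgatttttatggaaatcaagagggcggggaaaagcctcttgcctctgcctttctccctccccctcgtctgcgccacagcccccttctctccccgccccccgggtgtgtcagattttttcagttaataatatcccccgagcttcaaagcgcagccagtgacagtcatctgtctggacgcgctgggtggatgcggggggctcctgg
Searched on both strands, CACGTG stood in 7.15% of all 32851 promoter windows and TTTGGCGC in 0.514%. Counted by gene, CACGTG was held by 33.3% of the 9 members, against 11.8% of genes of the expression table with a window. TTTGGCGC was held by 11.1% of the members, against 1.14% of those genes. The variant E-box CACGCG, which stood in 9.27% of all windows, was found in Mga and Mycl. By gene that is 22.2% of the members, against 20.7% of genes of the expression table, so near the background. Such a match is a run of letters and not evidence of binding. Max and Mnt were higher in ATRX KO and Mxd4 lower, so the members with CACGTG in these windows did not move in 1 direction.

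Between 22177228 and 32477269 reads per library stood behind the ATRX KO values, and between 34966108 and 38039847 behind those of ATRX WT. Values are RPKM, that is, reads divided by gene length in kilobases and by the library size. A gene rose or fell when limma on log2 RPKM gave a Benjamini-Hochberg adjusted p under 0.05 over 12201 tested genes, and log2 fold changes are given as ATRX KO less ATRX WT with a standard error (SE). By that rule 89.5% of all tested genes were called, 43.6% higher and 45.9% lower, and the median log2 fold change was -0.02. A stricter rule asked whether a change exceeded log2 1 (limma treat), which 15.4% of genes passed as higher and 17.2% as lower. Scaling by table totals, that is, by each library's summed reads instead of the library sizes used by the authors, shifted the median over all genes by -0.20, so small changes depend on the scaling. Atrx itself was lower but present, with 16 ± 1.6 RPKM in ATRX KO, against 22.2 ± 0.571 RPKM in ATRX WT (SD, n = 3 each).

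Marker genes of cell types also differed between the lines. Of 12 neural stem and glioma markers listed 11 were in the table, and all 11 were lower in ATRX KO, with a summed level of 58.2 to 58.3 RPKM in ATRX KO, against 3240 to 3310 RPKM in ATRX WT. Olig1 had 0 reads in ATRX KO, and Fabp7 and Olig2 had 4 and 2 reads there, so these defining markers of the labelled cells were nearly absent. The 7 neuronal markers in the table, of 8 listed, summed to 7.37 to 8.06 RPKM in ATRX KO, against 175 to 182 RPKM in ATRX WT, with Dcx at 0 reads in ATRX KO. The 10 mesenchymal markers summed to 1610 to 1760 RPKM in ATRX KO, against 7.33 to 7.8 RPKM in ATRX WT. With no filter on low values all 7 neuronal markers fell, and 9 of the 10 mesenchymal markers rose and 1, Thy1, fell, with 0.656 ± 0.25 RPKM in ATRX KO, against 1.12 ± 0.167 RPKM in ATRX WT (SD, n = 3 each). Most tested markers of these 3 lists passed the filter through 1 genotype alone, so that counts among tested markers carry no weight. Of the other lists, 2 of 6 endothelial, 2 of 8 microglia and macrophage and 1 of 6 lymphocyte markers were tested, and all were higher in ATRX KO, though 3 of these 5 passed the filter through ATRX KO alone. These markers moved with every result below, and their part in the results was not tested. In bulk RNA, fewer cells of a type and less RNA per cell cannot be told apart.

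All 10 network genes passed the test and none had overlapping groups, where 89.5% of tested genes passed and 90.5% did not overlap. That share is near the background, so the direction and size of each change, and not the number of calls, describe the network. Myc, Max, Mxi1, Mxd1, Mnt and Mga were higher in ATRX KO and Mycn, Mycl, Mxd3 and Mxd4 lower. The stricter rule kept 4 of the rises, in Myc, Mxi1, Mnt and Mga, and 3 of the falls, in Mycn, Mxd3 and Mxd4, where 15.4% of all tested genes passed it as higher and 17.2% as lower. The median of the 10 was 0.54, against -0.02 over all tested genes.

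**Figure D1:**
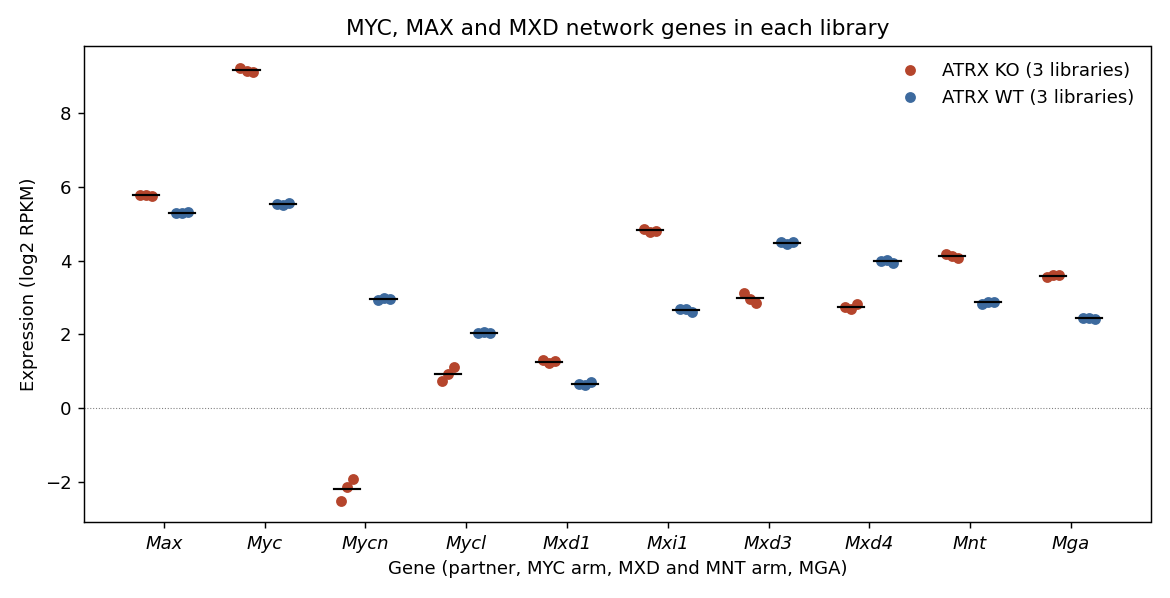
Expression of the 10 network genes in log2 RPKM (vertical axis) for each library, ATRX KO left of ATRX WT for every gene, with bars at the group means of 3 libraries. Myc stood highest in both genotypes, at a mean of 9.15 in ATRX KO, against 5.54 in ATRX WT, and Mycn lay at -2.18 in ATRX KO, against 2.96 in ATRX WT.

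Among the MYC genes, which are the activating arm, Myc rose while Mycn and Mycl fell. Myc (ENSMUSG00000022346.15, chromosome 15, 61985391 to 61990374, GRCm38), the broadly expressed growth regulator, had 600.0, 559 and 551 RPKM in ATRX KO, against 46.5, 45.3 and 47.4 RPKM in ATRX WT. Every ATRX KO library was far above every ATRX WT library, with 27412 to 43549 reads in ATRX KO, against 4182 to 4506 in ATRX WT. Myc averaged 570.0 ± 26.3 RPKM in ATRX KO, against 46.4 ± 1.03 RPKM in ATRX WT (SD, n = 3 each), 12.3-fold higher in ATRX KO, and the log2 fold change was 3.62 (SE 0.0374, limma adjusted p = 9.6e-12). This fold change exceeded that of 96.0% of tested genes. By mean log2 RPKM, Myc stood above 99.4% of the genes of the table in ATRX KO, against 86.6% in ATRX WT.

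Mycn (ENSMUSG00000037169.15, chromosome 12, 12936093 to 12941914), the MYC gene of neural progenitors, had 0.176, 0.23 and 0.265 RPKM in ATRX KO, against 7.6, 8.0 and 7.74 RPKM in ATRX WT. These came from 12, 14 and 13 reads in ATRX KO, against 738, 841 and 794 reads in ATRX WT, so Mycn was close to absent in the ATRX KO line. Summed reads over the authors' library sizes gave ATRX WT a level 39.9 times that of ATRX KO (95% exact binomial interval 29.1 to 56.2, for counting error only). The log2 fold change was -5.14 (SE 0.143, limma adjusted p = 1.9e-09), lower than that of all but 4.29% of tested genes. It was -2.84 when 1 RPKM was added before the logarithm, which shrinks the change of low genes. Mycn passed the filter on low values through ATRX WT.

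Mycl (ENSMUSG00000028654.13, chromosome 4, 122995652 to 123002485), a MYC gene that is more restricted in tissue, had 1.69, 1.92 and 2.16 RPKM in ATRX KO, against 4.14, 4.2 and 4.07 RPKM in ATRX WT. The groups did not overlap, and the ATRX KO level was 46.5% of the ATRX WT level. The log2 fold change was -1.11 (SE 0.0932, limma adjusted p = 3.4e-06), which did not pass the stricter rule (treat adjusted p = 0.38), though it did with scaling by table totals (0.017). Over all alternatives the log2 fold change of Mycl ranged from -1.31 to -0.74. Bmyc, a rodent relative of Myc outside the list and named after its value was seen, had 2.6 ± 0.218 RPKM in ATRX KO, against 10.9 ± 0.332 RPKM in ATRX WT (SD, n = 3 each). It fell by 2.08 on the log2 scale (limma adjusted p = 6e-09).

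The MYC genes differed in both amount and makeup. Their summed level was 602, 561 and 553 RPKM in ATRX KO, against 58.2, 57.5 and 59.2 RPKM in ATRX WT. Myc made up 99.6% to 99.7% of that sum in ATRX KO, against 78.8% to 80.1% in ATRX WT. Mycn gave 0.0293% to 0.0479% in ATRX KO, against 13.1% to 13.9% in ATRX WT, and Mycl 0.28% to 0.391% in ATRX KO, against 6.88% to 7.29% in ATRX WT. Myc was the most abundant MYC transcript of both lines, and the share of the other 2 genes was larger in every ATRX WT library.

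**Figure D2:**
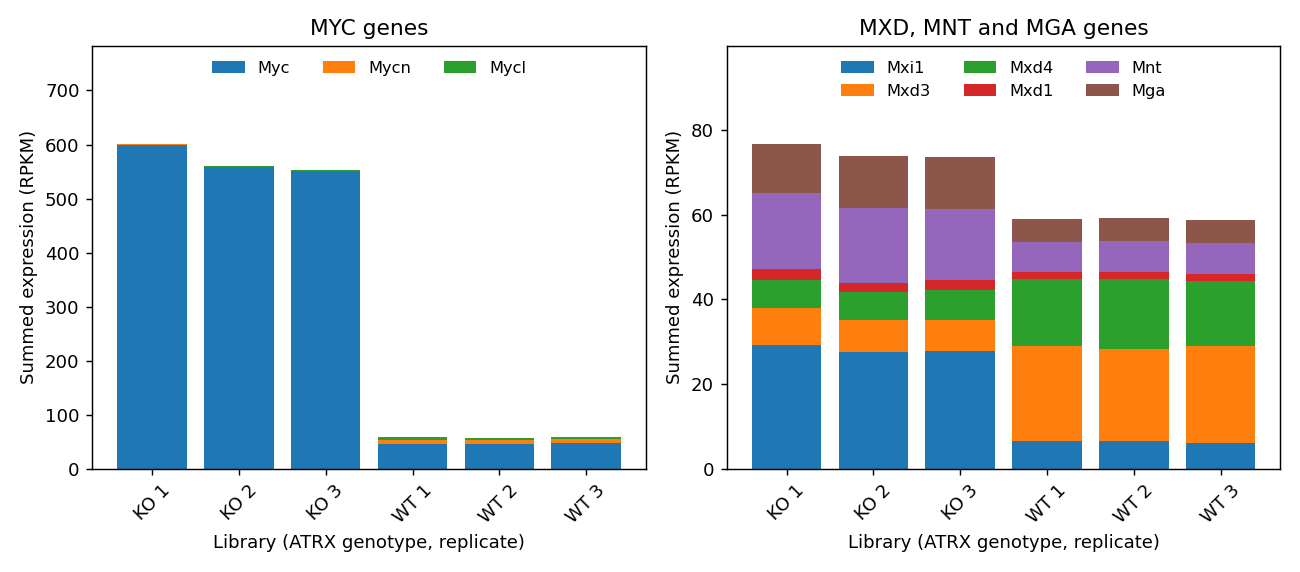
Summed RPKM (vertical axes, from 0) of the MYC genes, left, and of the MXD, MNT and MGA genes, right, in each library, ATRX KO replicates before ATRX WT replicates. The MYC sum was 553 to 602 RPKM in ATRX KO, against 57.5 to 59.2 RPKM in ATRX WT, while the other sum was 73.6 to 76.8 RPKM in ATRX KO, against 58.7 to 59.1 RPKM in ATRX WT with a different makeup.

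Max (ENSMUSG00000059436.13, chromosome 12, 76937269 to 76962201), the shared partner, changed least. It had 54.9, 55.3 and 54.2 RPKM in ATRX KO, against 39, 39 and 39.8 RPKM in ATRX WT. The groups were tight and apart, and the log2 fold change was 0.48 (SE 0.025, limma adjusted p = 1.2e-07), or 0.28 with scaling by table totals. Max did not pass the stricter rule. The summed MYC level was 10.1 to 11.0 times the Max level in ATRX KO, against 1.47 to 1.49 times in ATRX WT. These are ratios of transcripts per length and say nothing of protein.

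Of the 4 MXD-type genes, Mxi1 and Mxd1 rose and Mxd3 and Mxd4 fell. Mxi1 (ENSMUSG00000025025.14, chromosome 19, 53310518 to 53375810), a repressor that competes with MYC for MAX, had 29.2, 27.5 and 27.9 RPKM in ATRX KO, against 6.5, 6.51 and 6.1 RPKM in ATRX WT. Its lowest ATRX KO library was above its highest ATRX WT library by a wide margin. The log2 fold change was 2.15 (SE 0.0421, limma adjusted p = 2.4e-10), the second largest rise of the network.

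Mxd3 (ENSMUSG00000021485.14, chromosome 13, 55325168 to 55329823), which is unusual among MXD genes in being expressed in dividing cells, had 8.77, 7.75 and 7.28 RPKM in ATRX KO, against 22.6, 21.9 and 22.8 RPKM in ATRX WT. The ATRX KO libraries were all low and more spread. The log2 fold change was -1.50 (SE 0.0651, limma adjusted p = 3.3e-08). Its end overlaps that of Prelid1 on the other strand by the annotation, and whether reads were counted by strand is not given in the sources used here. Prelid1 had 150.0 ± 5.14 RPKM in ATRX KO, against 158 ± 3.6 RPKM in ATRX WT (SD, n = 3 each) and was not called (limma adjusted p = 0.068). Mxi1 and Mxd4 also overlap genes annotated on the other strand that have no row in the table, so some of their reads could belong to those genes. Max and Mxd1 each overlap an annotated gene on the same strand that has no row either.

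Mxd4 (ENSMUSG00000037235.13, chromosome 5, 34173883 to 34187720), a MAX partner of resting and differentiating cells, had 6.67, 6.43 and 7.08 RPKM in ATRX KO, against 15.8, 16.4 and 15.4 RPKM in ATRX WT. The ATRX KO level was 42.5% of the ATRX WT level, and the log2 fold change was -1.24 (SE 0.0486, limma adjusted p = 1.7e-08). Mxd1 (ENSMUSG00000001156.9, chromosome 6, 86647042 to 86669161), a MAX partner induced in differentiation, had 2.48, 2.32 and 2.41 RPKM in ATRX KO, against 1.57, 1.56 and 1.64 RPKM in ATRX WT. It was low in both lines and rose by 0.60 (SE 0.0708, limma adjusted p = 4e-05), or by 0.40 with scaling by table totals. Over all alternatives the rise of Mxd1 ranged from 0.39 to 1.14, so its size depends on the processing.

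Mnt and Mga, the larger MAX partners, both rose. Mnt (ENSMUSG00000000282.12, chromosome 11, 74830920 to 74845725), a repressor present in most cells, had 18, 17.6 and 16.8 RPKM in ATRX KO, against 7.09, 7.38 and 7.41 RPKM in ATRX WT. Its log2 fold change was 1.26 (SE 0.0419, limma adjusted p = 5.8e-09). Mga (ENSMUSG00000033943.15, chromosome 2, 119897228 to 119969581), which also carries a T-box domain, had 11.7, 12.3 and 12.1 RPKM in ATRX KO, against 5.46, 5.44 and 5.3 RPKM in ATRX WT. Its log2 fold change was 1.16 (SE 0.0423, limma adjusted p = 1.1e-08). With scaling by table totals the changes were 1.06 for Mnt and 0.96 for Mga, and neither then passed the stricter rule (treat adjusted p = 0.25 and 1.0).

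The 6 MXD, MNT and MGA genes differed more in makeup than in sum. Their summed level was 76.8, 73.9 and 73.6 RPKM in ATRX KO, against 59.0, 59.1 and 58.7 RPKM in ATRX WT, 1.27-fold higher. Mxi1 gave 37.3% to 38.0% of that sum in ATRX KO, against 10.4% to 11.0% in ATRX WT, while Mxd3 gave 9.9% to 11.4% in ATRX KO, against 37.0% to 38.9% in ATRX WT. Mnt gave 22.8% to 23.8% in ATRX KO, against 12% to 12.6% in ATRX WT. Summed over Mxd1, Mxi1, Mxd3 and Mxd4 alone, the level was 44.1 to 47.1 RPKM in ATRX KO, against 46.0 to 46.5 RPKM in ATRX WT, so the groups overlapped. The ratio of the MYC sum to the sum of the 6 genes was 7.84, 7.59 and 7.52 in ATRX KO, against 0.987, 0.973 and 1.01 in ATRX WT. As sums over chosen members, these values carry no test.

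The order of the levels per length differed between the lines below the first 2 places. In ATRX KO it ran Myc, Max, Mxi1, Mnt, Mga, Mxd3, Mxd4, Mxd1, Mycl and Mycn. In ATRX WT it ran Myc, Max, Mxd3, Mxd4, Mycn, Mnt, Mxi1, Mga, Mycl and Mxd1. No 2 neighbours in either order overlapped between their 3 libraries, though some came close, such as Mycn at 7.6 to 8.0 RPKM and Mnt at 7.09 to 7.41 RPKM in ATRX WT. The tested genes most like Myc over the 6 libraries, by Euclidean distance of log2 RPKM, were Anxa2 (distance 0.865), Areg (1.17) and Eif4ebp1 (1.32).

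The gene next to Myc moved with it. Pvt1, a long noncoding RNA gene whose start lies 0.053 Mb beyond that of Myc, had 150, 172 and 166 RPKM in ATRX KO, against 13.4, 13.5 and 13.5 RPKM in ATRX WT. It rose by 3.59 (SE 0.0466, limma adjusted p = 2.8e-11), so that its level was 0.251 to 0.308 of that of Myc in ATRX KO, against 0.284 to 0.298 in ATRX WT. Pvt1 was the 1 other tested gene within 1 Mb of Myc. Within 5 Mb there were 24 other tested genes, of which 14 rose and 5 fell, with a median log2 fold change of 0.50. Of all tested genes 43.6% rose and 45.9% fell. After Pvt1, the nearest on either side were Fam84b (0.78) and Fam49b (1.16). On the Pvt1 side Asap1 rose by 1.18 and Ndrg1 by 1.31, and Adcy8 also rose, with 1647 reads in ATRX KO, against 6 in ATRX WT. The size of the Adcy8 change rests on the prior count (2.36 to 8.47 on the log2 scale over the alternatives), and the gene passed the filter through ATRX KO. There Efr3a, at 3.802 Mb, had 385 ± 31.2 RPKM in ATRX KO, against 23.3 ± 0.927 RPKM in ATRX WT (SD, n = 3 each), a rise of 4.04. On the other side Trib1 and Mtss1 fell by 1.95 and 2.49. That side held all 5 falls and a larger number of rises, such as Derl1 (1.05), Tbc1d31 (0.96) and Fam84b (0.78). On the Pvt1 side Phf20l1 was not called (0.02, limma adjusted p = 0.75). Copy number was not measured, and these windows were chosen after the values were seen.

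The tested genes nearest to Mycn on 1 side were not called. Ddx1, at 0.307 Mb, had 125 ± 3.95 RPKM in ATRX KO, against 128 ± 3.07 RPKM in ATRX WT, and Nbas had 10.1 ± 0.372 RPKM in ATRX KO, against 9.51 ± 0.2 RPKM in ATRX WT (SD, n = 3 each). Neither was called (limma adjusted p = 0.24 and 0.095). On the other side Fam49a, at 0.68 Mb, fell by 3.84. Of 27 other tested genes within 5 Mb 14 rose, 10 fell and the median was 0.14, where 43.6% of all tested genes rose and 45.9% fell. Within 1 Mb of Mycl the 11 other tested genes had a median of -0.32, and 7 of them fell. In the same window around Max, 8 of 11 rose (median 0.31), and around Mxd4, 18 of 26 fell (median -0.37). The medians around Mxd1, Mxi1, Mxd3, Mnt and Mga were -0.2, -0.02, 0.12, 0.17 and -0.28.

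**Figure D3:**
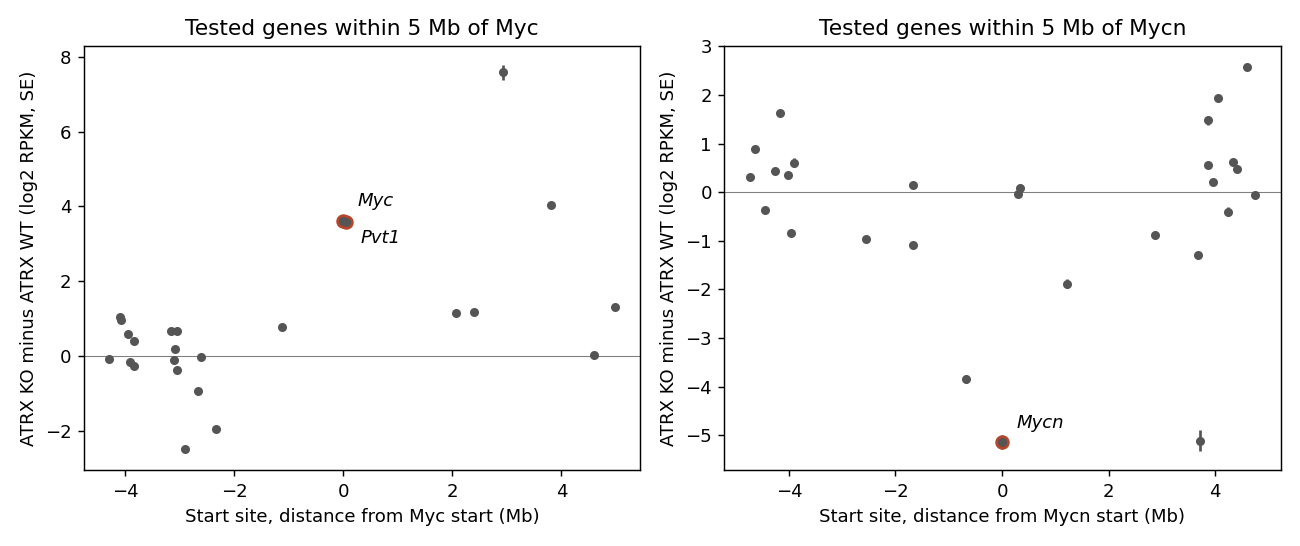
Log2 fold change of tested genes (vertical axis, ATRX KO minus ATRX WT, bars are SE) against the distance in Mb of their start site from that of Myc, left, and Mycn, right. Myc and Pvt1 lie together at 3.62 and 3.59. Mycn lies at -5.14, with Ddx1 (-0.04) and Nbas (0.08) on 1 side and Fam49a (-3.84) on the other. Farther off, Ntsr2 lies at -5.11.

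The MLX arm pairs MLX, a relative of MAX, with MLXIP (MondoA) and senses glucose. Of its 5 listed genes 4 were in the table, and all 4 rose, with a median of 0.62. Of all tested genes 43.6% rose. Txnip, an inhibitor of glucose uptake that MLXIP activates, had 113, 125 and 116 RPKM in ATRX KO, against 21.1, 21.0 and 20.3 RPKM in ATRX WT (log2 fold change 2.5, limma adjusted p = 8.3e-11). The related Arrdc4 rose by 0.69, Mlxip by 0.55 and Mlx by 0.38. All 4 kept that direction with scaling by table totals, where Mlx gave 0.19.

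Of the 15 cofactors through which MYC opens or marks chromatin, 9 rose, 2 fell and 4 were not called, with a median of 0.27. That is 73.3% called, where 89.5% of all tested genes were called, 43.6% higher and 45.9% lower. Zbtb17, which encodes MIZ1, the partner through which MYC represses genes, had 20.2, 18.1 and 18.2 RPKM in ATRX KO, against 4.79, 5.42 and 5.05 RPKM in ATRX WT, a rise of 1.89 (limma adjusted p = 5.7e-09). The 22 other tested genes within 1 Mb of Zbtb17 had a median of 1.06, and 16 of them rose. Zbtb17 overlaps Spen on the other strand, with the same limit as for Mxd3. The helicases Ruvbl1 and Ruvbl2 rose by 0.91 and 0.76, while Actl6a, a shared subunit, fell by 0.52 and the acetylase Ep300 by 0.13. For Ep300 the limma adjusted p was 0.03, and up to 0.1 over the alternatives: it was not called with the replicate block, nor without ATRX KO replicate 2 or 3 or ATRX WT replicate 2 or 3. With scaling by table totals, 4 cofactors fell.

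The SIN3 and deacetylase genes encode the corepressor of the MXD arm. Of these 13 genes 9 fell, 2 rose and 2 were not called, where 45.9% of all tested genes fell and 43.6% rose; the median was -0.35. Sap30, a subunit of the complex, had 24.7 ± 2.03 RPKM in ATRX KO, against 44.8 ± 0.181 RPKM in ATRX WT (SD, n = 3 each), a fall of 0.86, and the histone-binding Rbbp4 fell by 0.85. Sap18, at 1.1 ± 0.126 RPKM in ATRX KO, against 2.99 ± 0.0906 RPKM in ATRX WT, fell by 1.45 and is uncertain, since mouse has a near-identical copy that could share its reads. Hdac1, Hdac2 and Sin3b, picked with their values in view, fell by 0.71, 0.35 and 0.73, and Sin3a differed by -0.01 (limma adjusted p = 0.88). The rises were Ing2 (0.23) and Sap130 (0.12), and with scaling by table totals Sap130 gave -0.08 and 0 of the 13 rose.

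Among the 9 PRC1.6 partners of MGA 5 rose, 1 fell and 3 were not called, with a median of 0.14. That is 66.7% called, where 89.5% of all tested genes were called, 43.6% higher and 45.9% lower. Pcgf6, the subunit that defines the complex, had 23.5 ± 1.41 RPKM in ATRX KO, against 13.7 ± 0.413 RPKM in ATRX WT (SD, n = 3 each), a rise of 0.78. The ubiquitin ligase gene Ring1 rose by 0.58 and E2f6 by 0.57, while Cbx3, a heterochromatin protein, fell by 0.47. Tfdp1 rose by 0.14, and with scaling by table totals it gave -0.06, while 3 of the 9 then rose and 4 fell. Of 14 germline genes that PRC1.6 silences in mouse embryonic stem cells 4 were in the table and 2 were tested, and both fell: Zcwpw1 by 3.18 and Tdrkh by 1.17. Taf7l was too low to be tested, with 143 reads in ATRX KO, against 7 in ATRX WT. Stag3, also not tested, had 35 reads in ATRX KO, against 493 in ATRX WT, and with no filter 3 of the 4 fell and 1 rose.

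Of the enzymes that mark or stabilise MYC proteins 12 of 13 listed were tested. Of these 6 rose, 1 fell and 5 were not called, with a median of 0.11. That is 58.3% called, where 89.5% of all tested genes were called, 43.6% higher and 45.9% lower. Usp36, a nucleolar protease that removes ubiquitin from MYC, had 27.2, 25.6 and 26.6 RPKM in ATRX KO, against 9.84, 10.1 and 10.8 RPKM in ATRX WT, a rise of 1.37 (limma adjusted p = 5.3e-09). Gsk3b, a kinase that marks MYC for decay, rose by 0.75, and the 14 other tested genes within 1 Mb of it had a median of 0.91. Fbxw7, the ligase subunit that recognises marked MYC, fell by 0.26. With scaling by table totals, 2 genes of this list rose and 6 fell.

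Of 40 genes widely described as activated by MYC 34 rose, 4 fell and 2 were not called. The median was 0.69, where 43.6% of all tested genes rose. Like the other lists, this one was chosen with earlier results of these data known, so the count carries no test. Odc1, the first enzyme of polyamine synthesis, had 462, 411 and 438 RPKM in ATRX KO, against 71.6, 75.8 and 73.6 RPKM in ATRX WT (log2 fold change 2.57, limma adjusted p = 1.2e-10). Srm, the next enzyme of that pathway, had 217, 192 and 204 RPKM in ATRX KO, against 44.4, 43.7 and 47.9 RPKM in ATRX WT (2.17). Tert, the catalytic subunit of telomerase, rose by 2.94, with 592 reads in ATRX KO, against 115 in ATRX WT. Tert passed the filter on low values through ATRX KO, and its log2 fold change ranged from 1.33 to 4.32 over the alternatives. Each of these 3 had ATRX KO libraries wholly above the ATRX WT libraries.

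The falls among MYC-activated genes were Ccnd2, a G1 cyclin (-1.08), Apex1, a base excision repair enzyme (-0.75), Nme1 (-0.46) and Eif4a1 (-0.21). Nme1 is uncertain, because its neighbour Nme2 is a close copy and rose by 0.39. With scaling by table totals, 30 of the 40 rose, and after quantile normalization 28 rose and 7 fell. In the same libraries 9 of 12 proliferation genes fell and 3 rose (median -0.46), where 45.9% of all tested genes fell and 43.6% rose. Aurkb fell by 0.08 with a limma adjusted p of 0.025, and up to 0.087 over the alternatives. The number of falls was 8 with no variance trend and with the replicate block. It was also 8 without ATRX KO replicate 2 or 3 or ATRX WT replicate 2 or 3. The falls were led by Ccna2 (-0.75) and Bub1 (-0.67), and Mcm6 and Tyms rose by 0.38 each. Promoter windows were found for 33 of the 40, of which 11 held CACGTG, and 7 of those 11 rose, against 21 of the 22 without it. For CACGCG the counts ran the other way: 13 of the 14 with it rose, against 15 of the 19 without it. These differences were not tested.

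Of 15 genes described as repressed by MYC 14 were tested, of which 9 rose, 4 fell and 1 was not called, where 43.6% of all tested genes rose and 45.9% fell. Their median was 2.04, and Cdkn2b and Cdkn1c passed the filter through ATRX KO alone. Thbs1, a matrix protein that restrains vessel growth, had 56.6 ± 3.54 RPKM in ATRX KO, against 1.5 ± 0.075 RPKM in ATRX WT (SD, n = 3 each), a rise of 5.24, and the transcription factor Cebpd rose by 4.28. Cdkn2b, an inhibitor of G1 kinases, had 3505 reads in ATRX KO, against 0 in ATRX WT. The falls were led by Cebpa (-1.84), Cdkn1b (-0.76) and Timp3 (-0.72). The list shares Col1a2 with the mesenchymal markers, whose levels moved as given above.

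**Figure D4:**
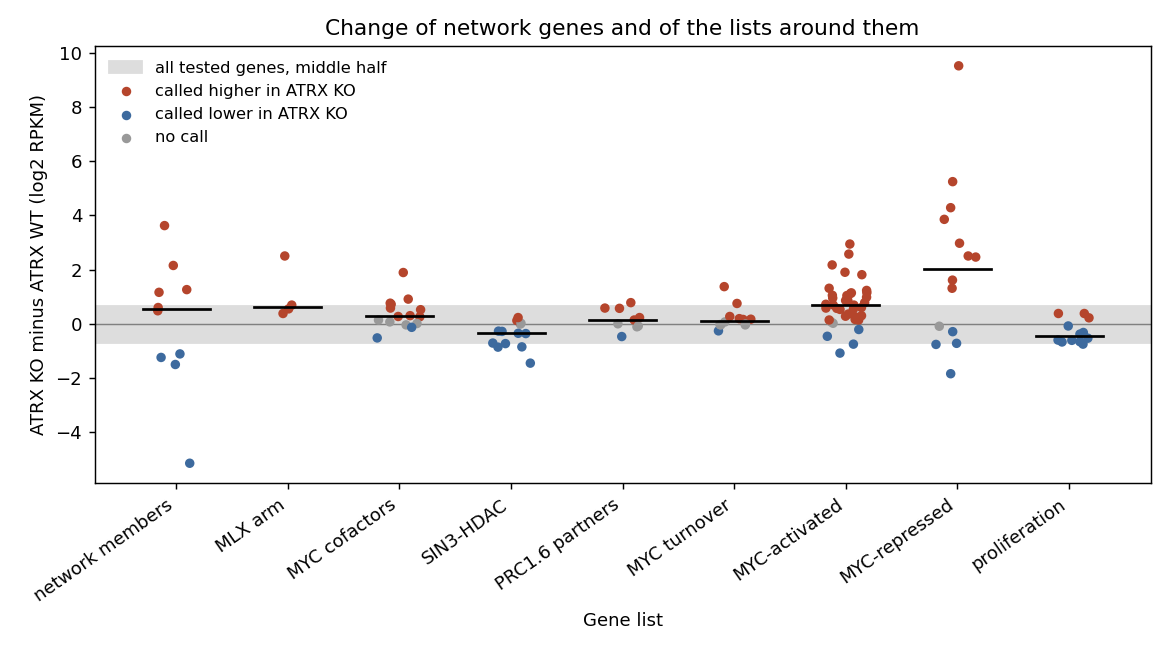
Log2 fold change (vertical axis, ATRX KO minus ATRX WT) of each tested gene by list (horizontal axis), coloured by its call, with black bars at list medians and a grey band for the middle 50% of all tested genes, -0.72 to 0.64. MYC-activated genes lie mostly above 0 (median 0.69) and SIN3-HDAC genes mostly below (median -0.35). The lists were chosen with earlier results of these data known.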

How the data were processed

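RNA-seq was compared between 3 ATRX KO and 3 ATRX WT libraries, grouped by the labels. Per the labels' protocols, a stranded mRNA kit was used on 4 ug of RNA, with paired 42-nt reads. The submitters' processing notes list STAR 2.5.3a, HTSeq 0.11.2, edgeR 3.20.9, FastQC and Trim Galore, and the builds mm9 and mm10 with no role for either. The authors deposited log2 RPKM values, and the filter on low genes is not given in the sources used here. Reads and gene lengths were recovered from the whole-read steps of the values for 100% of genes (tolerance 0.0001 reads), with a prior count that averaged 2 reads per library. The library sizes that the authors divided by were 0.9316 to 0.9354 of each ATRX KO library's summed reads, against 1.0676 to 1.073 for ATRX WT.

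The filter asked for log2 RPKM of 0 or more in 3 or more libraries, and the 12201 genes that passed, of 13069 (868 left out), went into a limma fit (limma 3.58.1, R 4.3.3, empirical Bayes with trend, two-sided, 4 residual degrees of freedom, adjusted p under 0.05). RPKM is 2 to the power of the deposited value. The fit was tested on simulated data in which few genes changed, unlike here, so that test cannot vouch for the share of genes called. Members and gene lists were chosen with earlier results of these data known. The text names all members and up to 3 called genes each way per network list, or 2 for other lists. Bmyc, Mlx, Hdac1, Hdac2, Sin3a, Sin3b, Tfdp1, Taf7l, Nme2, Eif4a1, Aurkb and Prelid1 were named beyond that rule, after their values were seen. So were further markers at 0 reads and the neighbours of members. Positions are from GENCODE M21 (GRCm38), and the table itself holds no coordinates.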

Additional observations from a re-analysis of the deposited data

How the results depend on the processing

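All 140 member values under 14 alternatives (2 other filters, a pseudocount of 1 RPKM, 2 other scalings, no variance trend, a replicate block, limma-voom on the recovered reads, chosen after seeing the data, and leaving out each library in turn) kept their direction and their side of the threshold. Over all alternatives Myc ranged from 3.31 to 3.64 on the log2 scale, Mycn from -5.32 to -2.84, and Max, the smallest, from 0.28 to 0.49. With scaling by table totals, 2 members, Myc and Mxi1, passed the stricter rule as higher. There 4 cofactors fell, 0 SIN3-HDAC genes rose, 3 PRC1.6 partners rose and 4 fell, and 2 turnover genes rose and 6 fell. This scaling shifted the median over all genes by -0.20. After quantile normalization 1 SIN3-HDAC gene rose, 4 PRC1.6 partners, 5 turnover genes and 7 MYC-activated genes fell, and the cause was not tested. It also gave a MYC sum of 490.0 RPKM in ATRX KO, against 60.3 in ATRX WT, an MXD, MNT and MGA sum of 73.5 in ATRX KO, against 59.3 in ATRX WT, and a ratio of 6.66 in ATRX KO, against 1.02 in ATRX WT. Without a filter 1 germline gene rose and 1 mesenchymal gene fell, since more genes were then tested. Leaving out 1 library gave 1 to 2 cofactors that fell (1 without ATRX KO replicate 2 or 3 or ATRX WT replicate 2 or 3), 1 to 2 SIN3-HDAC genes that rose (1 without ATRX WT replicate 1 or 2) and 1 to 2 PRC1.6 partners that fell (2 without ATRX KO replicate 1).

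Same-numbered libraries were not shown to be pairs: the correlations of their deviations were -0.0455, 0.0513 and -0.0383. With the replicate number as a block, 6 members rose and 4 fell as before, and 1 cofactor fell, Ep300 being lost. Tests on counts with edgeR or DESeq2 were not run, and limma-voom on the recovered reads was run in their place. Depth limits Mycn in ATRX KO, with 39 reads in all.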
